A study of Mus musculus with 6 samples.

Results

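Peroxisomes are small organelles that shorten very-long-chain and branched-chain fatty acids, start the synthesis of ether lipids and break down the hydrogen peroxide that their oxidases release. Their enzymes are made in the cytosol and imported by the products of the Pex genes (peroxins), which recognise a targeting signal at either end of the enzyme, dock it at the membrane and recycle the receptor. In brown adipose tissue peroxisomes are abundant, and many of their genes are known targets of peroxisome proliferator-activated receptors (PPARs). The genes described here were 35 genes of peroxisome biogenesis and peroxisomal lipid oxidation, 13 Pex genes and 22 enzymes and membrane proteins, taken by symbol from the 22466 genes with a RefSeq transcript in the table. A gene with several RefSeq transcripts was represented by the most abundant of them. All 35 genes had such a transcript, and all 35 passed the minimum mean abundance of 0.5 RPKM used for the comparison of genotypes.

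RNA was sequenced in 6 cultures of primary brown adipocytes, of which replicates 10, 11 and 12 were WT (labelled wildtype) and replicates 13, 14 and 15 were Ucp1-KO (labelled UCP1(-/-)). Precursor cells came from interscapular brown fat of male 129SvEvS1 mice aged 5 to 6 weeks and were differentiated in the dish for 7 days after 2 days of induction. The media of both genotypes held insulin, T3 and rosiglitazone, an agonist of PPARγ, and no group without rosiglitazone was analysed here. The Ucp1-KO mice constitutively lack UCP1, the uncoupling protein of brown fat mitochondria, and per the study their locus still yields a remnant RNA that is not functional. The sources do not say whether the cultures of a genotype came from separate mice, so that p-values measure only the spread between these cultures, which may be technical. Values of a gene are given below in RPKM, read numbers per length of the transcript and per sum of mapped reads, in the order of replicates 10, 11 and 12 for WT and 13, 14 and 15 for Ucp1-KO.

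The total behind each culture's values was between 16690132 and 17727651 reads in WT and between 14989605 and 17236662 reads in Ucp1-KO. Ucp1 RNA was at 1775, 981 and 1157 RPKM in WT and at 307, 409 and 398 RPKM in Ucp1-KO cultures, so that every culture was on the side of its label (log2 fold change -1.78, adjusted p of 0.868). Mature adipocyte markers summed to between 29910 and 31980 RPKM in the WT cultures and between 31280 and 33030 RPKM in Ucp1-KO. Most of each sum was Fabp4 (26400 to 29310 RPKM), so that it says little of the other markers. Over the 6 cultures Cidec lay between 769 and 1419 RPKM and Adipoq between 1135 and 1714 RPKM. Brown adipocyte markers, Ucp1 among them, summed to between 2813 and 3573 RPKM in WT and between 1972 and 3082 RPKM in Ucp1-KO. Of these 8 markers, 6 had a log2 fold change above 0. Markers of other cells were not even between the cultures. All 7 stromal and preadipocyte markers tested had a log2 fold change below 0 in Ucp1-KO against WT (summed level 654 to 1554 RPKM in WT, highest in replicate 11, and 576 to 900 RPKM in Ucp1-KO), as had all 5 mural markers (131 to 220 and 43.1 to 183 RPKM) and all 4 endothelial markers tested (2.76 to 33.2 and 5.55 to 15.7 RPKM). Leaving out 1 culture, the median lay between -1.02 and -0.06 for stromal, -0.80 and -0.46 for mural and -1.10 and 0.14 for endothelial markers. The endothelial direction thus depended on the cultures kept, as did that of the stromal markers Cd34, Ly6a and Col1a1. The sums overlapped, but the levels of Lum and Dcn (log2 fold change -1.20 and -0.85), Pdgfra (-0.33) and the mural marker Cspg4 (-0.47) did not overlap between the genotypes, with a limma p between 0.00513 for Dcn and 0.0506 for Pdgfra and an adjusted p of 0.868. Macrophage markers summed to 56.6 to 168 RPKM in WT and 41.7 to 776 RPKM in Ucp1-KO, with the highest level in replicate 14. Skeletal muscle markers summed to at most 14.1 RPKM and hepatocyte markers to at most 0.429 RPKM, with Ttr and Cyp7a1 at 0 in all cultures. The cultures most alike in their deviations from the mean of each transcript were WT replicate 10 and Ucp1-KO replicate 13 (Pearson's r = 0.52 over 16865 transcripts), although they differ in genotype. The labels give no batch, and for many of the genes below the log2 fold change is also given without one or both of them.

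Targeting signals can be read at the ends of the coding sequences. A match shows a sequence of the kind that an import receptor recognises. The lack of a match does not show that a protein is not imported. The receptor Pex5 recognises a signal called PTS1, the last tripeptide of a protein, typically serine or alanine, a basic residue and leucine. Codons of this kind (serine, alanine or cysteine, then lysine, arginine or histidine, then leucine or methionine) closed the coding sequence of 8 of the 22 enzymes and membrane proteins (36.4%), of 0 of the 13 Pex genes and of 0.505% of 21595 genes in the GENCODE M21 annotation of GRCm38. The members were Ehhadh, Hsd17b4, Scp2, Crot, Pecr, Acot8, Decr2 and Gnpat. Below are 6 of these coding ends and that of Cat, catalase, 5′ to 3′ with the tripeptide codons in capitals before the stop codon. That of Cat reads alanine, asparagine and leucine and lies outside the pattern.
Ehhadh: ggaccccatagcAGCAAACTGtga
Scp2: cagccgggcaaaGCTAAGCTGtga
Crot: ctgatgaacaccGCTCATCTTtag
Pecr: tttaagaagaaaGCCAAGCTCtaa
Acot8: caggtgtcagagAGTAAGCTAtag
Decr2: gaatccttctctGCTAAGCTGtag
Cat: gcgaagggaaaaGCTAACCTGtaa

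The receptor Pex7 recognises a nonapeptide near the start of a protein, PTS2. Codons that match it (arginine or lysine, then leucine, valine, isoleucine or glutamine, then any 5 codons, histidine or glutamine, and leucine or alanine) were found in 4 of the 35 genes, Acaa1a, Acaa1b, Phyh and Pex11a, and in 0.861% of all genes. Pex11a encodes a membrane protein, and its match is a match of letters only. Only the start of each coding sequence was searched, so that a nonapeptide further in would have been missed. For the genes without a match, Agps among them, the search thus does not show that PTS2 is absent. The bases of the 3 enzymes are shown with the nonapeptide codons in capitals, which start at codon 3 in both thiolases and at codon 9 in Phyh.
Acaa1a: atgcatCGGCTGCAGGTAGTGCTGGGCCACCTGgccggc
Acaa1b: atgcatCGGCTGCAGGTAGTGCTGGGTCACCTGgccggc
Phyh: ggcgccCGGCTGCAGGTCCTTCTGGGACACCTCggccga

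The element that PPARs bind together with retinoid X receptors, a direct repeat of AGGNCA with 1 base of any kind between the copies, was searched on both strands from 250 bases before to 50 bases after the transcription starts. It was in 0 of 34 windows of the 29 members found in RefSeq's promoter table and in 0.381% of all 32851 windows of that table. At that share, 0 of 34 windows was the likely count for any genes. These exact letters in this window say nothing of elements with other letters or elsewhere.

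The levels of the 35 transcripts spanned from 1.21 to 189 RPKM in the mean of the 6 cultures. Of 12259 genes ranked by that mean, Cat was at rank 256, Phyh at 299, Scp2 at 440, Hsd17b4 at 468 and Pex19, the most abundant Pex gene, at 483, whereas Acox2 was at 10910. The Pex genes lay between 3.37 RPKM for Pex26 and 106 RPKM for Pex19. Summed over the 13 genes they made up 528, 448 and 450 RPKM in WT and 581, 518 and 483 RPKM in Ucp1-KO. The 22 enzymes and membrane proteins summed to 1118, 1062 and 1075 RPKM in WT and to 1208, 1153 and 1090 RPKM in Ucp1-KO. Both sums overlapped between the genotypes.

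**Figure D1:**
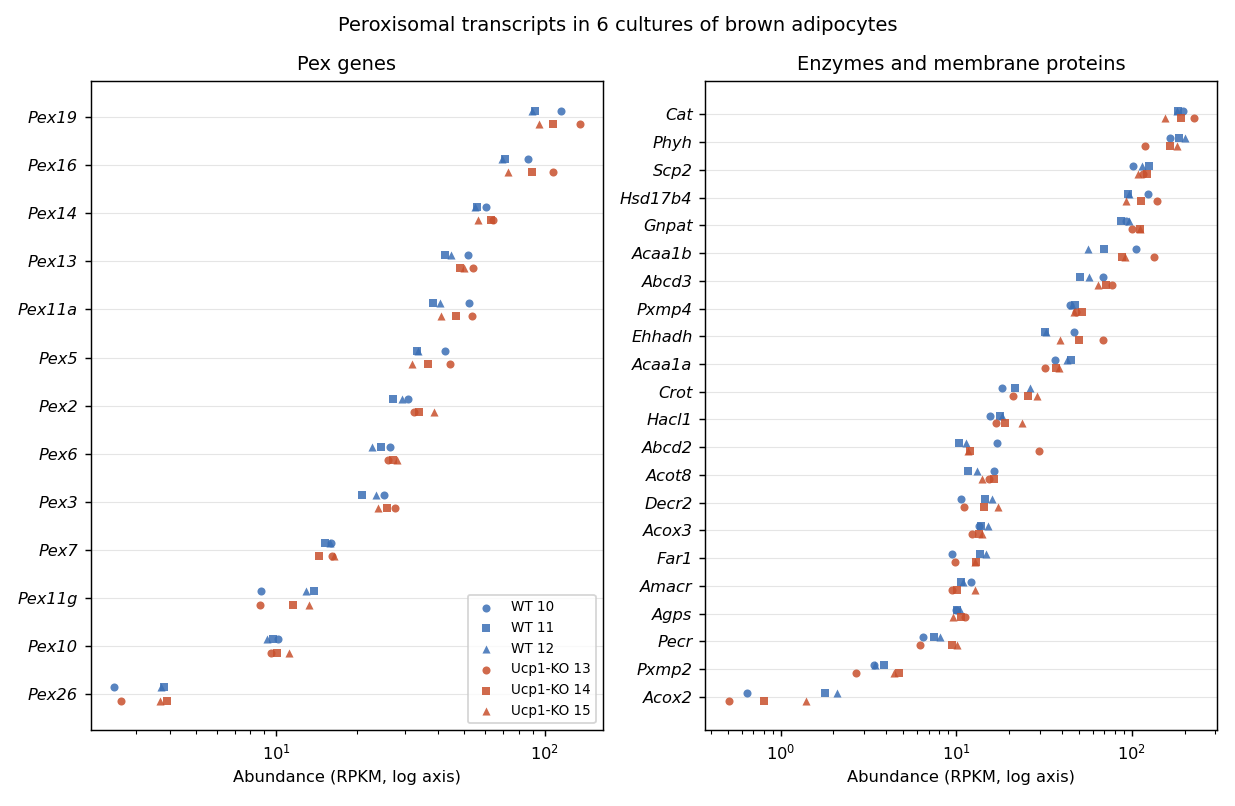
Abundance of the 13 Pex transcripts (left) and the 22 transcripts of enzymes and membrane proteins (right) in RPKM on a log axis, each point 1 culture, with WT in blue above Ucp1-KO in red and the replicates told apart by shape. The genotypes overlap for all transcripts but Pex2 and Gnpat, and Acox2 is the least abundant.

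The genotypes were compared over all 16865 RefSeq transcripts past the minimum abundance by limma on log2(RPKM + 1), with p-values adjusted over all of them. No peroxisomal gene passed an adjusted p of 0.05, nor did any other transcript (0% of those tested), and the smallest adjusted p was 0.868. This held for Ucp1 too, which the study's own test called, so that the lack of a call here does not show equal levels. Without adjustment, 2 of the 35 genes, Pex2 and Gnpat, had a limma p under 0.05 with the higher mean in Ucp1-KO, against 388 transcripts (2.3%) of all in that direction. In the opposite direction, 0 of the 35 did, against 547 transcripts (3.24%) of all. The same 2 genes were the ones with every Ucp1-KO culture above every WT culture, which held for 6.04% of all transcripts, and 0 had every Ucp1-KO culture below, which held for 5.15%. The log2 fold change was above 0 for 27 of the 35 genes (77.1%, against 49.6% of all transcripts), with a median of 0.10 against -0.00 for all transcripts. For 31 of the 35 genes, the 95% confidence interval excluded a 2-fold difference in either direction, as it did for 15538 of all 16865 transcripts. The exceptions among the 35 were Acaa1b, Ehhadh, Abcd2 and Acox2. In RNA of whole cultures, fewer cells of a type and less RNA per cell cannot be told apart. The part of the stromal, mural, endothelial and macrophage RNA in these differences was not tested.

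**Figure D2:**
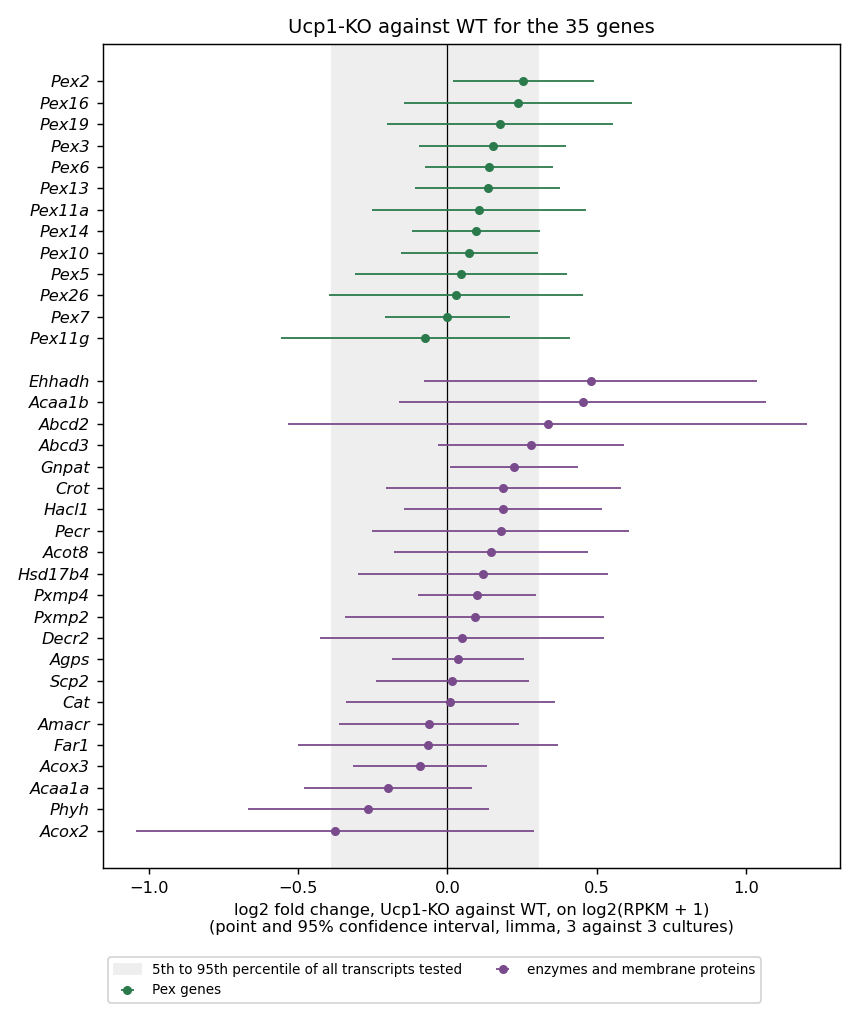
Log2 fold change of Ucp1-KO against WT on the log2(RPKM + 1) scale for each of the 35 genes, with the limma 95% confidence interval (3 against 3 cultures), Pex genes in green and enzymes and membrane proteins in purple. The grey band spans the 5th to 95th percentile of all transcripts tested (-0.39 to 0.30), and only the intervals of Pex2 and Gnpat lie wholly above 0, before adjustment.

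Among the Pex genes, 11 of 13 had a log2 fold change above 0, with a median of 0.11 and a range from -0.07 to 0.25. The receptor for PTS1 signals, Pex5, was at 42.3, 33.4 and 33.7 RPKM in WT and at 44.3, 36.8 and 32.1 RPKM in Ucp1-KO. Its log2 fold change was 0.05 ± 0.15 (SE), and the genotypes overlapped. The PTS2 receptor Pex7 was less abundant, at 15.6 ± 0.431 RPKM in WT and at 15.6 ± 1.05 RPKM in Ucp1-KO (SD, n = 3). The ratio of Pex5 to Pex7 lay between 1.96 and 2.76 in the 6 cultures and overlapped between the genotypes.

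Pex13 and Pex14 form the docking site for the loaded receptors. Pex14 was at 60.4, 55.9 and 54.9 RPKM in WT and at 64.2, 62.8 and 56.3 RPKM in Ucp1-KO, a log2 fold change of 0.10 ± 0.09 (SE). Pex13 was at 51.5, 42.3 and 44.9 RPKM in WT and at 53.8, 48.3 and 50.2 RPKM in Ucp1-KO, with 0.14 ± 0.10. Both overlapped, and both were highest in Ucp1-KO replicate 13. Leaving out 1 culture, Pex14 lay between 0.06 (without Ucp1-KO replicate 13) and 0.15 (without Ucp1-KO replicate 15), and Pex13 between 0.07 (without WT replicate 11) and 0.21 (without WT replicate 10). Of the words of 50 bases that make up the Pex14 transcript, 25.1% also occur in other genes, most of all in the antisense gene Gm17029. A library without strand marks cannot separate the reads of an antisense gene.

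Pex2 and Pex10 encode RING-finger ubiquitin ligases that tag the receptor for recycling. Pex2 (chr3:5560188-5578596, GRCm38) was at 31.0, 27.2 and 29.4 RPKM in WT and at 32.7, 33.9 and 38.5 RPKM in Ucp1-KO. All Ucp1-KO cultures were above all WT cultures, with the largest distance in replicate 15. The log2 fold change was 0.25 ± 0.10 (SE), with a limma p of 0.0388 and an adjusted p of 0.868, and the exact permutation p was 0.1, the smallest that 3 against 3 cultures allow. All 7 RefSeq transcripts of Pex2 gave this direction, but they share their reads. The unadjusted p of Pex2 passed 0.05 without WT replicate 10 or without Ucp1-KO replicate 13, and did not pass when any of the other 4 cultures was left out, where it was between 0.0725 and 0.126. With median-of-ratios scaling of the cultures its limma p was 0.0568. Pex10 was at 9.69 ± 0.462 RPKM in WT and at 10.3 ± 0.837 RPKM in Ucp1-KO.

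Pex6 encodes an ATPase that pulls the receptor out of the membrane, and Pex26 the anchor that holds it there. Pex6 was at 24.6 ± 1.85 RPKM in WT and at 27.1 ± 1.01 RPKM in Ucp1-KO. Pex26, the least abundant Pex gene, was at 3.33 ± 0.741 and 3.41 ± 0.679 RPKM. The log2 fold changes were 0.14 ± 0.09 (0.09 without WT replicate 12) and 0.03 ± 0.18 (SE), and the 95% confidence interval of the latter reached from -0.40 to 0.45. For Pex26, WT replicate 10 and Ucp1-KO replicate 13 were below the other 4 cultures.

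Pex3, Pex16 and Pex19 insert proteins into the peroxisomal membrane, Pex19 as the soluble carrier. Pex19 (chr1:172126755-172136497) was at 115, 91.6 and 89.7 RPKM in WT and at 135, 107 and 95.4 RPKM in Ucp1-KO. Pex16 was at 86.3, 71.1 and 69.2 RPKM in WT and at 107, 89.7 and 72.8 RPKM in Ucp1-KO. In both genes replicate 10 was the highest of WT and replicate 13 the highest of Ucp1-KO, and the genotypes overlapped. Their log2 fold changes were 0.18 ± 0.16 and 0.24 ± 0.16 (SE), and 0.04 and 0.10 without Ucp1-KO replicate 13. At the other end, that of Pex19 was 0.29 without WT replicate 10, and that of Pex16 0.38 without Ucp1-KO replicate 15, with a limma p of 0.0353. The most abundant RefSeq transcript of Pex16 is annotated as non-coding, and its coding transcript had the same log2 fold change of 0.24. Pex3 was lower in abundance, with 23.1 ± 2.09 RPKM in WT and at 25.8 ± 1.92 RPKM in Ucp1-KO, and shares 15% of its words with Adat2 on the opposite strand.

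The Pex11 proteins elongate and divide peroxisomes. Pex11a was at 52.3, 38.4 and 40.7 RPKM in WT and at 53.5, 46.7 and 41.0 RPKM in Ucp1-KO. Pex11g was at 8.79, 13.8 and 12.9 RPKM in WT and at 8.69, 11.5 and 13.2 RPKM in Ucp1-KO. The paralogues differed in opposite ways between the cultures: replicates 10 and 13 were the highest of their genotype for Pex11a and the lowest for Pex11g, so that the ratio of Pex11a to Pex11g was 5.95 and 6.15 there and between 2.79 and 4.06 in the other 4 cultures. Between the genotypes the ratio overlapped. The log2 fold change of Pex11a was 0.11 ± 0.15 (SE), and lay between the 0.01 without Ucp1-KO replicate 13 and the 0.24 without WT replicate 10 when 1 culture was left out. Of the words of Pex11g, 47.8% occur in other genes, most of all in the antisense gene Gm44775.

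Among the enzymes and membrane proteins, 16 of 22 had a log2 fold change above 0, with a median of 0.09 and a range from -0.38 to 0.48. The transporters Abcd2 and Abcd3 carry fatty acyl-CoA across the peroxisomal membrane. Abcd3 was at 68.2, 50.7 and 57.1 RPKM in WT and at 77.4, 71.3 and 64.5 RPKM in Ucp1-KO. Only WT replicate 10 lay within the range of the Ucp1-KO cultures, and the log2 fold change was 0.28 ± 0.13 (SE), with a limma p of 0.0725 and an adjusted p of 0.871. It was 0.18 without WT replicate 11 and 0.39 without WT replicate 10, with a limma p of 0.226 and of 0.0168. Abcd2 was at 17.1, 10.4 and 11.3 RPKM in WT and at 29.8, 12.04 and 11.7 RPKM in Ucp1-KO. Its log2 fold change of 0.34 ± 0.37 rested on Ucp1-KO replicate 13, without which it was -0.08.

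Of the oxidases, which open each round of peroxisomal β-oxidation and release hydrogen peroxide, Acox2 acts on bile acid intermediates and Acox3 on branched-chain acyl-CoA. Acox3 was at 13.5, 13.9 and 15.2 RPKM in WT and at 12.3, 13.4 and 14.1 RPKM in Ucp1-KO. Acox2 was at 0.646, 1.79 and 2.10 RPKM in WT and at 0.506, 0.806 and 1.39 RPKM in Ucp1-KO, the lowest of the 35 genes, with 20 to 91 reads a culture. Its log2 fold change was the most negative of the list, -0.38 ± 0.28 (SE), and the genotypes overlapped. Replicates 10 and 13 were the lowest of their genotype, and the log2 fold change was -0.65 without the former and -0.22 without the latter. At this low abundance it also moved with the scale, to -0.64 with a constant of 0.1 in place of 1 RPKM and to -0.71 with limma-voom on reads.

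The next steps are shared by the bifunctional enzymes, Ehhadh for straight-chain and dicarboxylic substrates and Hsd17b4 for a broader range. Ehhadh (chr16:21761285-21787834) was at 46.9, 32.1 and 32.3 RPKM in WT and at 68.9, 50.3 and 39.0 RPKM in Ucp1-KO. Its mean in Ucp1-KO was 142% of WT, with the largest log2 fold change of the list in all 6 cultures, 0.48 ± 0.23 (SE), a limma p of 0.0813 and an adjusted p of 0.871. Without Ucp1-KO replicate 13 it was 0.27, below that of Pecr (0.37), and without WT replicate 10 it was 0.66. WT replicate 10 was above Ucp1-KO replicate 15, so that the genotypes overlapped. Hsd17b4 was at 125, 95.3 and 96.0 RPKM in WT and at 139, 113 and 92.9 RPKM in Ucp1-KO, with 0.12 ± 0.18. The ratio of Ehhadh to Hsd17b4 was 0.376, 0.337 and 0.337 in WT and 0.495, 0.444 and 0.420 in Ucp1-KO, and here the genotypes did not overlap. The exact two-sided permutation p was 0.1, the smallest possible, and 0.7 after adjustment over the 7 ratios compared. The pairs were chosen with earlier values of these data known.

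Acaa1a, Acaa1b and Scp2 encode the thiolases of the last step, and Scp2 also a sterol carrier protein. Acaa1b (chr9:119148043-119157093) was at 105, 69.4 and 56.7 RPKM in WT and at 134, 87.6 and 91.1 RPKM in Ucp1-KO, with a log2 fold change of 0.45 ± 0.26 (SE, limma p of 0.124). Its neighbour Acaa1a (chr9:119341028-119350296) was at 36.4, 45.2 and 42.6 RPKM in WT and at 32.0, 37.2 and 38.6 RPKM in Ucp1-KO, with -0.20 ± 0.12 (limma p of 0.136). Without Ucp1-KO replicate 13, the log2 fold change was 0.26 for Acaa1b and -0.12 for Acaa1a, and without WT replicate 10 it was 0.70 and -0.29. The paralogues thus had opposite signs, and each overlapped between the genotypes. Their ratio, Acaa1b to Acaa1a, was 2.89, 1.53 and 1.33 in WT and 4.20, 2.36 and 2.36 in Ucp1-KO, with an exact permutation p of 0.3 (0.7 after adjustment over the 7 ratios). WT replicate 10 was above Ucp1-KO replicates 14 and 15. Of the 50-base words of Acaa1a, 35.1% occur in other genes, and of those of Acaa1b 46.2%, in each case most of all in the other paralogue. Reads of 50 bases could therefore be assigned to either in part only. Scp2 was at 102, 126 and 115 RPKM in WT and at 115, 123 and 108 RPKM in Ucp1-KO, with 0.02 ± 0.11. It shares 41.4% of its words with other genes, most of all with the pseudogene Scp2-ps2.

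**Figure D3:**
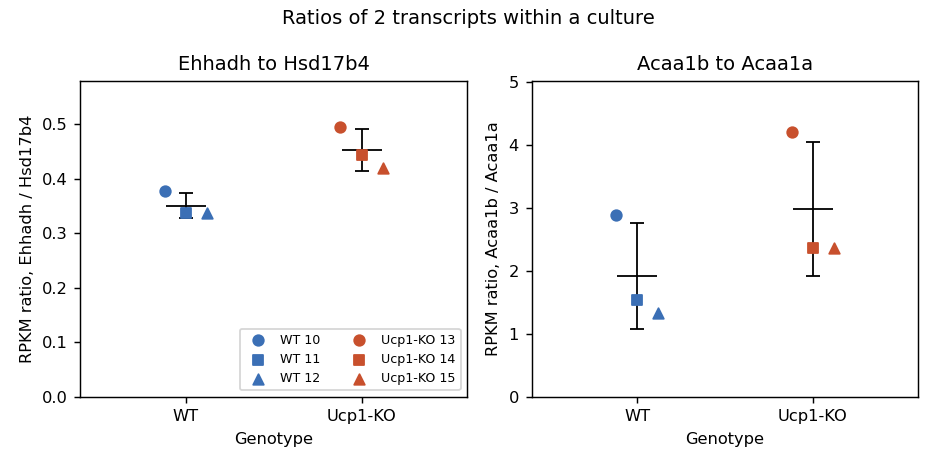
Ratio of the RPKM values of Ehhadh to Hsd17b4 (left) and of Acaa1b to Acaa1a (right) in each culture, with the mean and SD of 3 cultures per genotype. The 3 Ucp1-KO cultures lie above the 3 WT cultures on the left, between 0.420 and 0.495 against 0.337 to 0.376, and overlap with WT on the right.

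Products leave peroxisomes as carnitine esters made by Crot, carnitine octanoyltransferase, or as free acids released by the thioesterase Acot8. Crot was at 22.1 ± 4.13 RPKM in WT and at 25.3 ± 3.85 RPKM in Ucp1-KO, and Acot8 at 13.8 ± 2.43 and 15.3 ± 1.26 RPKM. The auxiliary enzymes were Decr2, a dienoyl-CoA reductase, Pecr, an enoyl-CoA reductase, and Amacr, the racemase of branched-chain acyl-CoA. Decr2 was at 13.8 ± 2.84 RPKM in WT and at 14.3 ± 3.09 RPKM in Ucp1-KO, Pecr at 7.36 ± 0.820 and 8.59 ± 2.08 RPKM, and Amacr at 11.3 ± 0.742 and 10.8 ± 1.76 RPKM. All 5 overlapped between the genotypes, and their log2 fold changes lay between the -0.06 of Amacr and the 0.19 of Crot. Without Ucp1-KO replicate 13, those of Pecr and Crot were 0.37 and 0.30, and without WT replicate 10 they were 0.10 and 0.06. That of Acot8 was 0.15 ± 0.14 (SE), 0.27 without WT replicate 10 and 0.04 without WT replicate 11.

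Phytanic acid, a branched-chain fatty acid from the diet, is shortened by α-oxidation, with Phyh as the hydroxylase and Hacl1 as the lyase. Phyh, second to Cat in abundance, was at 166, 186 and 202 RPKM in WT and at 120, 165 and 182 RPKM in Ucp1-KO. Its log2 fold change was -0.27 ± 0.17 (SE, limma p of 0.163), and Ucp1-KO replicate 13 was the lowest of the 6. Without that culture it was -0.09. Hacl1 was at 17.2 ± 1.39 RPKM in WT and at 19.9 ± 3.55 RPKM in Ucp1-KO. Of its words, 55.6% occur in other genes, most of all in Gm49387, an overlapping gene on the same strand.

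Gnpat and Agps encode the first enzymes of ether lipid (plasmalogen) synthesis, and Far1 supplies their fatty alcohol. Gnpat was at 93.2, 87.3 and 96.2 RPKM in WT and at 99.9, 112 and 112 RPKM in Ucp1-KO. All Ucp1-KO cultures were above all WT cultures, with replicate 13 the closest to WT. The log2 fold change was 0.22 ± 0.09 (SE), with a limma p of 0.0448, an adjusted p of 0.868 and an exact permutation p of 0.1. Of the 6 cultures, only Ucp1-KO replicate 13 could be left out with the limma p under 0.05, at 0.024, and without any other it was between 0.0721 and 0.144. It was 0.0503 with median-of-ratios scaling and 0.0566 with limma-voom on reads. Agps, the next enzyme, was at 10.2 ± 0.335 RPKM in WT and at 10.5 ± 0.806 RPKM in Ucp1-KO, with a log2 fold change of 0.03 ± 0.09. Far1 was at 12.6 ± 2.78 and 11.9 ± 1.74 RPKM. The ratio of Gnpat to Agps, between 8.68 and 11.7, overlapped between the genotypes.

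Cat, which breaks down hydrogen peroxide, was at 197, 185 and 181 RPKM in WT and at 227, 191 and 155 RPKM in Ucp1-KO. The highest and the lowest culture were both Ucp1-KO, replicates 13 and 15, and the log2 fold change was 0.01 ± 0.15 (SE). The membrane protein Pxmp4 was at 44.5, 47.4 and 45.7 RPKM in WT and at 48.2, 52.4 and 47.1 RPKM in Ucp1-KO, a log2 fold change of 0.10 ± 0.08, and of 0.05 without Ucp1-KO replicate 14. Pxmp2, a channel protein of the membrane, was at 3.57 ± 0.271 and 3.95 ± 1.11 RPKM. Its log2 fold change was 0.09 ± 0.18, and 0.29 without Ucp1-KO replicate 13.

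Differences between cultures of the same genotype recurred in groups of these genes. In 13 of the 35 (37.1%, against 15.6% of 12259 genes), replicate 10 was the highest of WT and replicate 13 the highest of Ucp1-KO. These were Abcd2, Abcd3, Acaa1b, Cat, Ehhadh and Hsd17b4 together with Pex3, Pex5, Pex11a, Pex13, Pex14, Pex16 and Pex19, among them the 6 most abundant Pex genes. In 12 others (34.3%, against 33.8% of all genes), the same cultures were the lowest of their genotype. These were Acaa1a, Acox2, Acox3, Crot, Decr2, Far1, Hacl1, Pecr, Phyh and Pxmp2 with Pex11g and Pex26. Over the 35 genes, the deviations of WT replicate 10 and Ucp1-KO replicate 13 from the gene means correlated with r = 0.756, against 0.52 over all 16865 transcripts, and those of WT replicates 11 and 12 with r = 0.849, against 0.466. These correlations describe the cultures, across genes that are not independent and that share each culture's library. Ucp1-KO replicate 13 held the highest value of the 6 cultures for 14 genes (40%, against 17.7% of all genes) and WT replicate 11 for 3 (8.57%, against 26.9%).

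**Figure D4:**
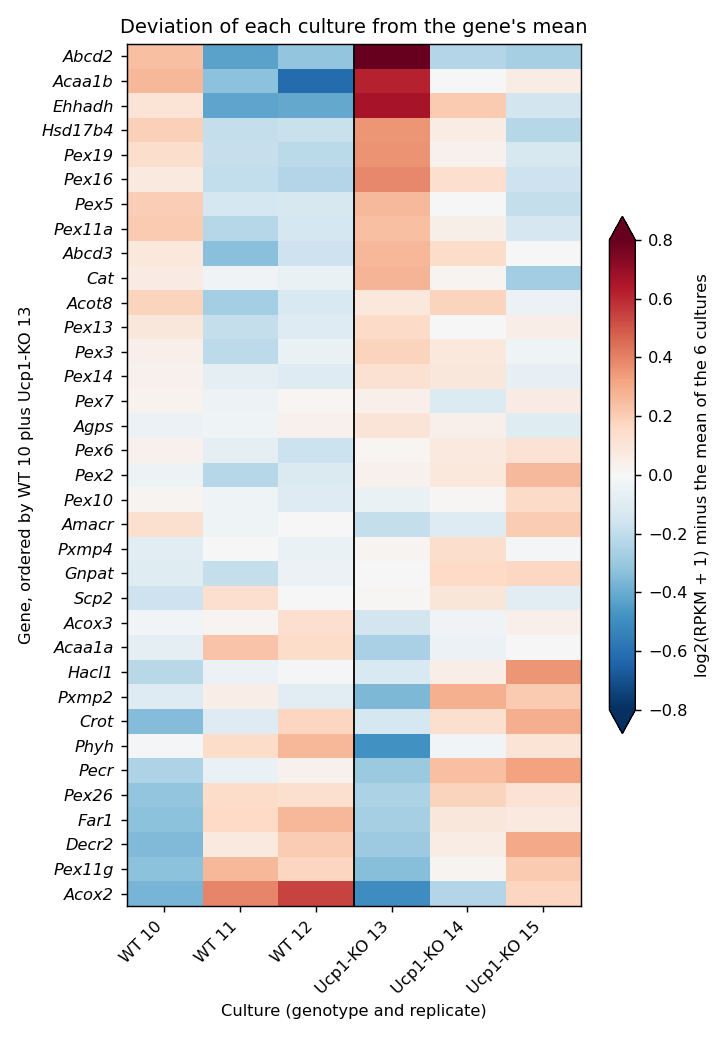
Deviation of each culture from the mean of the 6 cultures on the log2(RPKM + 1) scale, 1 row per gene and 1 column per culture, ordered by the sum of WT replicate 10 and Ucp1-KO replicate 13, red above and blue below the mean. These cultures are red for Abcd2, Acaa1b and Ehhadh at the top and blue for Decr2, Pex11g and Acox2 at the bottom.

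Without WT replicate 10 and Ucp1-KO replicate 13, a choice made after seeing the data, 7 of the 35 genes had a limma p under 0.05 in 2 against 2 cultures, when 13.6% of all transcripts did. They were Abcd3, Acaa1b, Ehhadh, Gnpat, Pecr and Pex2 with the higher mean in Ucp1-KO and Acox2 with the lower. In that subset 22 genes did not overlap, when 49.4% of all transcripts did not, and 0 passed the adjusted threshold. The log2 fold changes were 0.45 for Ehhadh, 0.50 for Acaa1b, 0.33 for Abcd3 and -0.50 for Acox2, against 0.48, 0.45, 0.28 and -0.38 in all 6 cultures. The median was 0.15 for the Pex genes and 0.10 for the enzymes and membrane proteins.

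A further 42 genes of peroxisomes were listed, and 33 of them passed the minimum abundance. None passed the adjusted threshold. Without adjustment 4 had a limma p under 0.05 with the higher mean in Ucp1-KO and 0 with the lower, against 2.3% and 3.24% of all transcripts. In 6 every Ucp1-KO culture was above every WT culture, against 6.04% of all transcripts. The log2 fold change was above 0 for 25 of the 33, with a median of 0.05, which lay between 0.03 and 0.09 when 1 culture was left out. Of the 14 tested genes of lipid metabolism, with log2 fold changes from -0.29 to 0.39, 3 were among the 4. Hsdl2, a dehydrogenase-like protein with a sterol carrier domain, was at 199, 144 and 164 RPKM in WT and at 235, 213 and 213 RPKM in Ucp1-KO (log2 fold change 0.39, limma p of 0.0227). Acad11, an acyl-CoA dehydrogenase, was at 105, 78.4 and 85.3 RPKM in WT and at 130, 107 and 106 RPKM in Ucp1-KO (0.36, limma p of 0.0387). In both, replicate 10 was the highest of WT and replicate 13 the highest of Ucp1-KO. Slc25a17, the peroxisomal carrier of coenzyme A and related cofactors, was at 45.3, 41.1 and 39.3 RPKM in WT and at 55.6, 55.5 and 47.2 RPKM in Ucp1-KO (0.32, limma p of 0.0174). The fourth, Nudt12, a hydrolase of nicotinamide nucleotides, was at 18.3, 14.4 and 16.9 RPKM in WT and at 20.04, 21.0 and 25.5 RPKM in Ucp1-KO (0.40, limma p of 0.0184). Their adjusted p was 0.868 in each case. The most abundant of this list, the dienoyl-CoA isomerase Ech1, was at 417, 408 and 414 RPKM in WT and at 411, 475 and 539 RPKM in Ucp1-KO, and the genotypes overlapped. Its log2 fold change was 0.19, and between 0.10 and 0.29 when 1 culture was left out.

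The 9 further genes of biogenesis and division were all tested, and 0 had a limma p under 0.05, with log2 fold changes between -0.08 and 0.17. In 1 of them, Acbd5, which tethers peroxisomes to the endoplasmic reticulum, the genotypes did not overlap (limma p of 0.0652). The most abundant, the division factors Mff, Fis1 and Dnm1l, had log2 fold changes of 0.04, 0.01 and 0.01. Idh1, Prdx5 and Ephx2, the most abundant of the 16 other matrix and membrane proteins, had log2 fold changes of -0.00, -0.04 and -0.12. Uox and Hao2, enzymes known from the liver, were at 0 in all cultures. Of the 6 regulators, 0 had a limma p under 0.05. Pparg, the target of rosiglitazone, was at 128, 119 and 120 RPKM in WT and at 126, 136 and 143 RPKM in Ucp1-KO. Ppara lay between 35.9 and 49.2 RPKM in the WT cultures and between 33.6 and 66.3 RPKM in Ucp1-KO. Both overlapped between the genotypes.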

How the data were processed

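RNA sequencing of 6 cultures of primary brown adipocytes was analysed. The authors made the libraries without strand information, sequenced 50 bases from one end and counted only reads with a single place in mouse genome build 38 towards annotated transcripts, with Genomatix software. The deposited values are RPKM per transcript and culture. The submitters' processing notes name CASAVA and bcl2fastq. The authors compared the genotypes with DESeq2, a test for read counts that was not rerun here.

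Genotypes came from the labels, and 0 columns of values matched no culture. The members, lists and ratio pairs were chosen with earlier results of these data known. RefSeq transcripts (28890 of 168326) with a mean of at least 0.5 RPKM were compared by limma 3.58.1 in R 4.3.3 (empirical Bayes with intensity trend on log2(RPKM + 1), without covariates), 3 against 3 cultures, with Benjamini-Hochberg adjustment over 16865 transcripts and a threshold of 0.05. Fold changes on this scale understate those of low transcripts. Levels and ratios were compared by exact two-sided permutation tests. Values per culture are given for the 6 most abundant Pex genes, the 8 most abundant others, genes with an unadjusted p under 0.05 or no overlap, the 3 largest fold changes and paralogues. Of the other peroxisome lists, genes under that p and the 3 most abundant were to be named, but 1 abundant gene of lipid metabolism, with a log2 fold change below 0, is not reported here. Marker lists are mostly given as sums.

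Totals were computed from the smallest steps of the RPKM values. With them, 16863 of the 16865 transcripts gave whole reads within 0.05, and 3 reads on 2000 bases were worth 0.0846 to 0.1001 RPKM, which is the floor for counting error alone. Signals were read as codons of GENCODE M21 coding sequences, and 34 of 35 transcripts matched it. Promoter windows and coordinates are RefSeq's on GRCm38.p6. Sequences on chromosomes 8 and 18 are not shown. Overlap with other transcripts was counted in words of 50 bases. Other steps used Python 3.11.15 (pandas 2.3.3, numpy 2.4.6, scipy 1.17.1, matplotlib 3.10.9). Alternatives were a constant of 0.1 RPKM, no minimum abundance, 1 transcript or the sum of transcripts per gene, all annotations, median-of-ratios scaling, limma-voom on recovered reads and leaving out each culture. Leaving out WT replicate 10 and Ucp1-KO replicate 13 together was added after seeing the data.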

Additional observations from a re-analysis of the deposited data

How the results depend on the processing

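No transcript passed the adjusted threshold under the alternatives for which all transcripts were counted, which leaves out the sum of transcripts per gene, and the smallest adjusted p of a member under any alternative was 0.325. The count of members with an unadjusted p under 0.05, 2 in all cultures, was 0 with median-of-ratios scaling and 1 with limma-voom on recovered reads (Pex2). The unadjusted p of Pex2 and Gnpat was 0.0568 and 0.0503 with that scaling and 0.0411 and 0.0566 with limma-voom. The count lay between 0 and 6 when 1 culture was left out, with 0 without WT replicate 11, WT replicate 12 or Ucp1-KO replicate 14 (when 1.88%, 2.61% and 3.57% of all transcripts passed), 2 without Ucp1-KO replicate 15 (5.16%), 4 without Ucp1-KO replicate 13 (when 9.14% of all transcripts passed) and 6 without WT replicate 10 (10.4%), and was 7 without WT replicate 10 and Ucp1-KO replicate 13 together (13.6%). The count of members without overlap, also 2, lay between 2 and 18 when 1 culture was left out, with 6 without Ucp1-KO replicate 13 (27.8% of all transcripts), 12 without Ucp1-KO replicate 15 (20.5%), 18 without WT replicate 10 (32.8%), 3 without Ucp1-KO replicate 14 (17.9%) or WT replicate 11 (14.4%) and 2 without WT replicate 12 (16.7%), and was 22 without WT replicate 10 and Ucp1-KO replicate 13 (49.4%), where fewer cultures overlap less often by construction. The median log2 fold change stayed above 0 under every alternative. Leaving out 1 culture, it lay between 0.082 and 0.19 for the Pex genes and between 0.043 and 0.095 for the enzymes and membrane proteins, and without WT replicate 10 and Ucp1-KO replicate 13 it was 0.15 and 0.096. The direction held under all 14 alternatives for 22 members (18 higher and 4 lower in Ucp1-KO) and turned under at least 1 for 13. Without WT replicate 10 and Ucp1-KO replicate 13 it turned for Cat (-0.089), Scp2 (-0.063), Amacr (0.067) and Agps (-0.026), and for Pex7 it was 0.014 with median-of-ratios scaling and 0.0039 with summed transcripts. Leaving out 1 culture, the log2 fold change lay between -0.12 and 0.15 for Cat, -0.062 and 0.088 for Scp2, -0.026 and 0.26 for Hsd17b4, -0.075 and 0.15 for Pex5, -0.033 and 0.053 for Pex7, -0.083 and 0.55 for Abcd2, -0.12 and 0.21 for Decr2, -0.24 and 0.053 for Far1, -0.26 and 0.079 for Pex11g, -0.18 and 0.018 for Amacr, -0.011 and 0.0899 for Agps, -0.028 and 0.29 for Pxmp2, and -0.12 and 0.16 for Pex26. The cause of these shifts was not tested. No paired analysis was possible because the genotypes share no replicate numbers. Depth limits Acox2 most, with 20 reads in the lowest culture. Transcripts at 0 in all cultures stayed out of the fit with no minimum abundance.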
